A study of Mus musculus with 6 samples.

Results

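Cluster 5 of the naïve cells was a group of 381 cells among the 4992 naïve tdT+ cells that the deposited annotation holds, and among 17033 cells in all 6 libraries of the series. Its members were taken as every cell with the number 5 in the deposited clustering of the naïve cells, 334 of 4306 cells in the NG2 library (7.76%, exact 95% interval 6.97 to 8.60) and 47 of 686 in the Tbx18 library (6.85%, 5.08 to 9.01). The working markers of the group were Ephx3, Adamts16, Col28a1, Ccnd1, Tcf15 and Ackr3. The cluster numbers are those of the deposited cell annotation, which divides the naïve cells into 14 clusters, and they need not match the numbers used in the study's text.

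The cells came from the cerebral cortex of NG2-CreERT2/Ai14-flx and Tbx18-CreERT2/Ai14-flx mice aged 3 to 4 months, in which tamoxifen switches on tdTomato in cells whose Cre is driven by the NG2 (Cspg4) or Tbx18 promoter, and in their descendants. All groups received tamoxifen, and live tdT+/DAPI- cells were sorted for 3′ single-cell RNA sequencing. The naïve animals had no injury. The injured groups of each line had an intracerebral injection 7 days after tamoxifen and were used 3 days later. The injection was saline (physical injury) or endothelin-1 with L-NAME, a vasoconstrictor and an inhibitor of nitric oxide synthesis (ischemic injury). Each of the 6 groups was 1 library made from the pooled cortices of several male and female mice, so animals cannot be told apart and no test between groups or lines was possible. All intervals below are exact 95% intervals and cover counting error only.

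Pericytes sit within the basement membrane of capillaries, where they hold the endothelium and its barrier in place. Vascular smooth muscle cells wrap arteries, arterioles and veins and carry the contractile proteins smooth muscle actin (Acta2), transgelin (Tagln) and smooth muscle myosin (Myh11). Together both are called mural cells. Between the smooth muscle of an arteriole and the pericytes of the capillary bed lies a stretch of vessel whose mural cells have some contractile genes and some pericyte genes, so that a mural cell is often described by the mix of both sets rather than by 1 gene.

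Cluster 5 was compared within each library with pericyte clusters 0, 1 and 2, summed as 1 group (2192 NG2 and 165 Tbx18 cells), and with smooth muscle cluster 4 (393 NG2 and 47 Tbx18 cells). Levels are unique molecular identifiers (UMIs) summed over the cells of a cluster in 1 library and expressed as CPM (counts per 1e+06 UMIs). The sums of cluster 5 were 1391178 UMIs in the NG2 library and 285595 in the Tbx18 library. The median cell of cluster 5 had 4123 UMIs in the NG2 library and 5792 in the Tbx18 library. Within the NG2 library the medians were 3811, 3045 and 4270.5 UMIs in clusters 0, 1 and 2, and 8661 in cluster 4. Cluster 5 cells thus had about the depth of the pericyte clusters and less than that of the smooth muscle cluster. The 2 naïve libraries shared no cell barcode, and no pair of libraries shared more than 5.

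The label of pericytes was checked against markers. In the NG2 library, cluster 5 held 12569 CPM of Vtn (vitronectin), against 19704 CPM in clusters 0, 1 and 2 and 948 CPM in cluster 4. The Tbx18 library gave 7388 CPM of Vtn in cluster 5, 13784 CPM in clusters 0, 1 and 2 and 909 CPM in cluster 4. Of the 20 genes in a list of pericyte markers, all had counts in cluster 5, and 17 were at least 2-fold higher there than in cluster 4 in each library, where 14.5% of all genes in the NG2 library and 20% in the Tbx18 library were. The label held in this respect, while the contractile genes described further on lay above the level of the other pericyte clusters.

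Markers of other cell types were low or at 0 for the genes that define those types. Of the endothelial list, Cldn5, the tight junction protein of brain endothelium, had 1 count in cluster 5 of the NG2 library and 3 counts in the Tbx18 library. The endothelial list summed to 751 CPM in cluster 5 and 947 CPM in clusters 0, 1 and 2 (NG2), most of it Esam at 552 CPM in cluster 5, and 3 of its 15 genes had no count. The microglial list summed to 106 CPM in cluster 5 and 109 CPM in clusters 0, 1 and 2, and 4 of its 10 genes, C1qa among them, were at 0 in cluster 5. The astrocyte list summed to 910 CPM against 874 CPM, with the Na+/K+ ATPase subunit gene Atp1b2 at 899 CPM, and 5 of its 10 genes were at 0 in cluster 5. The fibroblast list was the exception in size. It summed to 4699 CPM in cluster 5, 2365 CPM in clusters 0, 1 and 2 and 2239 CPM in cluster 4, and 4432 CPM of this was Mgp, the matrix Gla protein that inhibits calcification. Dcn (decorin), a defining fibroblast gene, had 7 counts in cluster 5 of the NG2 library, and 4 of the 12 fibroblast genes had none. In each library 6 fibroblast genes lay above the minimum used below. Of these, 1 was at least 2-fold higher than in clusters 0, 1 and 2, and 4 were lower. Their median log2 differences were -1.81 (NG2) and -1.65 (Tbx18). Over all genes above that minimum, 3.93% were higher and 1.39% lower in the NG2 library, and 6.48% and 4.04% in the Tbx18 library. The neuron list summed to 441 CPM in cluster 5 and 231 CPM in clusters 0, 1 and 2, with the non-coding RNA Meg3 at 346 CPM and 5 of its 9 genes at 0. Of its 2 genes above the minimum used below, Nrgn (neurogranin, a calmodulin-binding protein of neurons) was higher than in the pericytes in each library, at 88.4 CPM against 15.4 CPM (NG2) and 66.5 CPM against 15.1 CPM (Tbx18), and it stood at 70.7 CPM and 51.7 CPM in cluster 4. What part RNA from other cells had in the results was not tested.

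The 6 working markers belong to different classes. Ephx3 is an epoxide hydrolase that acts on epoxides of fatty acids. Adamts16 is a secreted metalloprotease, and Col28a1 encodes the chain of a minor collagen. Ccnd1 is cyclin D1, Tcf15 is a basic helix-loop-helix transcription factor, and Ackr3 is an atypical chemokine receptor that binds and takes up Cxcl12. In GRCm38 coordinates, Ephx3 lies on chromosome 17 at 32183770 to 32189549 (minus strand), Adamts16 on chromosome 13 at 70727802 to 70841811 (minus strand), Col28a1 on chromosome 6 at 7997808 to 8192617 (minus strand), Ccnd1 on chromosome 7 at 144929931 to 144939925 (minus strand), Tcf15 on chromosome 2 at 152143561 to 152149097 (plus strand) and Ackr3 on chromosome 1 at 90203980 to 90216751 (plus strand).

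Promoters of the markers are shown because all 6 markers were higher in cluster 5 than in the comparison clusters and 1 of them, Tcf15, is a factor of the class that binds E-boxes. A RefSeq promoter entry (GRCm38.p6, 250 bases before to 50 after the gene's start) was found for 3 of the 6 markers. RefSeq's start of Ephx3 differs from that of the position above and lies inside it, and the window of Ephx3 is set on RefSeq's start. Each is written 5′ to 3′ on the strand of its gene, with E-boxes (CANNTG, which reads the same on both strands) in capitals.
Ephx3, chr17:32189421-32189720, minus strand: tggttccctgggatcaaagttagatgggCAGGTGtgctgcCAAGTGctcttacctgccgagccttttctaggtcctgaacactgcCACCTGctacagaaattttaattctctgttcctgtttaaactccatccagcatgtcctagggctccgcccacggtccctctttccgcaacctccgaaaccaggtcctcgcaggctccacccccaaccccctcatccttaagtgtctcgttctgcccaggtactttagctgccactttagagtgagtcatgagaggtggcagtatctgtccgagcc
Col28a1, chr6:8192568-8192867, minus strand: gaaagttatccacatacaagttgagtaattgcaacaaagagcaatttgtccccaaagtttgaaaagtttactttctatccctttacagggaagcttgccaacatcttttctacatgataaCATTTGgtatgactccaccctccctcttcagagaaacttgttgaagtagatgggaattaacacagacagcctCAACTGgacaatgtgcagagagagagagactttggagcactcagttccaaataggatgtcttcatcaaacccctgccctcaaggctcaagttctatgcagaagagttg
Ackr3, chr1:90203730-90204029, plus strand: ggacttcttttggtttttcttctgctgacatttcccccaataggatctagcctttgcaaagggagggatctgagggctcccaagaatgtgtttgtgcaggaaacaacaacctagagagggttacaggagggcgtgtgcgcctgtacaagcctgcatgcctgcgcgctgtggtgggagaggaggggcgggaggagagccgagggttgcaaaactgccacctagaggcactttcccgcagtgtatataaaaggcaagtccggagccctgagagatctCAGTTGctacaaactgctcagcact
The window of Ephx3 held 3 E-boxes, that of Col28a1 held 2 and that of Ackr3 held 1. An E-box was present in 72.3% of the 32851 promoters in the table, with a median of 1, so the letters alone do not set these genes apart.

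These markers named the cluster, so their levels are a description and carry no test. Ephx3 stood at 142 CPM (123 to 163) in cluster 5 of the NG2 library, at 14.3 CPM in clusters 0, 1 and 2 and at 28.5 CPM in cluster 4. Within the Tbx18 library it stood at 112 CPM (76.6 to 158), 11.6 CPM and 19.7 CPM. Both libraries thus placed Ephx3 in cluster 5 above both comparison groups, with intervals that did not overlap. Ccnd1 stood at 179 CPM (157 to 203) in the NG2 library, against 3.53 CPM in clusters 0, 1 and 2 and 65.4 CPM in cluster 4. In Tbx18 cells its levels were 186 CPM (139 to 243), 8.14 CPM and 32.0 CPM. Among these 5 clusters most Ccnd1 was thus in clusters 5 and 4, and clusters 6, 11 and 13 of the NG2 library had 147, 221 and 300 CPM of it.

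Ackr3 had the highest count of the 6 markers. It stood at 1072 CPM (1018 to 1128) in cluster 5 of the NG2 library, 369 CPM in clusters 0, 1 and 2 and 269 CPM in cluster 4. The Tbx18 library gave 949 CPM (839 to 1069), 434 CPM and 305 CPM. Its ligand gene Cxcl12 went the other way against the pericytes, at 183 CPM in cluster 5, 259.96 CPM in clusters 0, 1 and 2 and 24.4 CPM in cluster 4 of the NG2 library, a difference of -0.50 on the log2 scale that is short of the fold used below. Tcf15 stood at 144 CPM (125 to 165) in cluster 5 of the NG2 library, with 35.8 CPM in clusters 0, 1 and 2 and 37.8 CPM in cluster 4. In the Tbx18 library the Tcf15 levels were 73.5 CPM (45.5 to 112), 20.9 CPM and 34.5 CPM, and here the intervals of cluster 5 and cluster 4 (18.9 to 57.9) overlapped. Pericyte cluster 3 of the Tbx18 library had more Tcf15 than cluster 5, at 80.7 CPM, and pericyte cluster 8 came nearest to cluster 5 for Ackr3, at 500.2 CPM in the NG2 and 539 CPM in the Tbx18 library.

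Adamts16 and Col28a1 were sparse. Adamts16 stood at 43.8 CPM (33.5 to 56.3) in cluster 5 of the NG2 library, 2.44 CPM in clusters 0, 1 and 2 and 4.94 CPM in cluster 4. Among Tbx18 cells it stood at 112 CPM (76.6 to 158), 6.97 CPM and 2.46 CPM, the last being 1 count. Col28a1 stood at 47.4 CPM (36.7 to 60.4), 9.99 CPM and 2.04 CPM in the NG2 library. Within the Tbx18 library it stood at 98.0 CPM (65.1 to 142) in cluster 5 and 36.0 CPM (24.5 to 51.1) in clusters 0, 1 and 2, and cluster 4 had no count, which allows up to 7.39 CPM. Pericyte cluster 2 alone had 67.3 CPM (42.7 to 101) of Col28a1 there, an interval that overlapped that of cluster 5. Both genes lay below the minimum of 50 CPM in the NG2 library that the gene counts below require, so 4 of the 6 markers met it there and all 6 in the Tbx18 library. The plot of marker levels by cluster shows all 6 genes in both libraries.

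**Figure D1:**
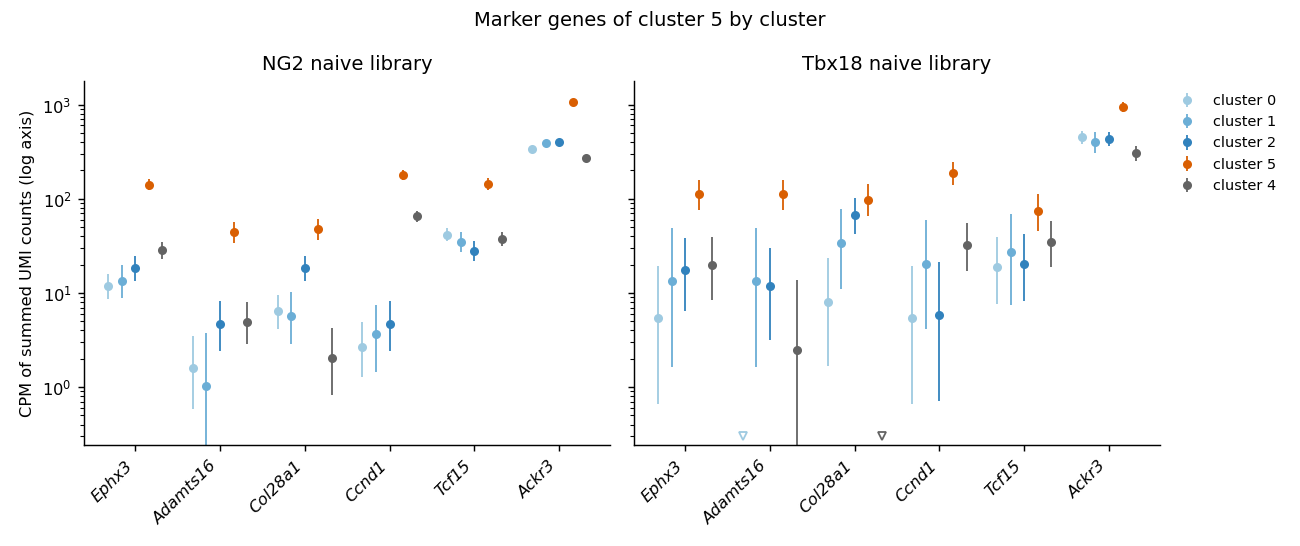
Levels of the 6 working markers (CPM, log axis) in naïve pericyte clusters 0, 1 and 2, cluster 5 and smooth muscle cluster 4, 1 point per library with exact 95% Poisson bars; open triangles mark 0 counts. Cluster 5 is highest of the 5 clusters for each gene in both libraries, for example Ephx3 at 142 CPM in the NG2 library and 112 CPM in the Tbx18 library.

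Few cells showed several markers at once at an equal depth. With all UMIs, 72.5% of the 334 cluster 5 cells of the NG2 library (67.3 to 77.2) had at least 2 of the 6 markers, against 12.9% in clusters 0, 1 and 2 and 36.1% in cluster 4, whose cells were deeper. With each cell thinned to 1000 UMIs, which left 325 cells of cluster 5, 2150 of clusters 0, 1 and 2 and 393 of cluster 4, the shares were 26.8% (22.0 to 31.9), 2.19% and 4.58%. In Tbx18 cells at 1000 UMIs they were 23.4% (12.3 to 38.0) of 47 cells, 1.36% of 147 and 0 of 46. No marker was seen in 6.29% of cluster 5 cells at full depth in the NG2 library and in 4.26% in the Tbx18 library. Cell by cell, Ackr3 was the marker seen most often, in 64.0% (58.5 to 69.2) of cluster 5 cells at 1000 UMIs in the NG2 library, against 27.7% in clusters 0, 1 and 2 and 21.9% in cluster 4. Ephx3 was seen in 11.1% (7.88 to 15.004), 0.977% and 3.05%. Ccnd1 was seen in 16.3% (12.5 to 20.8), 0.279% and 4.83%. The part of free RNA in these shares was not tested.

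Against the pericytes of clusters 0, 1 and 2, cluster 5 had more RNA of 11 contractile genes, Acta2 and Tagln first, in the NG2 library, and less of genes such as Itih5, Slc6a13 and Spp1. Ratios were computed as log2 of CPM with 1 CPM added to each side, over genes with at least 50 CPM in the higher group (4252 genes in the NG2 library and 4478 in the Tbx18 library), and a gene is called higher or lower at a difference of at least 1. Within the NG2 library 167 genes were higher (3.93%) and 59 lower (1.39%). In the Tbx18 library, with fewer cells, 290 were higher (6.48%) and 181 lower (4.04%). The median of all these genes was -0.03 in the NG2 library and 0.01 in the Tbx18 library. Of the 167 genes higher in the NG2 library, 146 met the minimum in the Tbx18 library, all 146 had the same direction there, and 121 reached the fold. Of the 59 lower genes, 50 met the minimum in the Tbx18 library, all 50 had the same direction, and 41 reached the fold. Since the clusters were formed on these cells and genes, the counts describe cluster 5 and do not test it.

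Acta2 had the largest ratio to the pericyte clusters in the NG2 library. It stood at 1766 CPM (1697 to 1837) in cluster 5 of the NG2 library, 18.3 CPM (15.5 to 21.5) in clusters 0, 1 and 2 and 13352 CPM in cluster 4. Among Tbx18 cells it stood at 1047 CPM (932 to 1173), 63.9 CPM and 9374 CPM. The log2 differences from the pericyte clusters were 6.52 and 4.01. Tagln stood at 1020.0 CPM (968 to 1074), 13.9 CPM and 10088 CPM in the NG2 library. The Tbx18 library gave 581 CPM (496 to 677) of Tagln, 49.98 CPM and 7647 CPM. For both genes cluster 5 lay far above the other pericytes and far below smooth muscle. Most of this RNA came from 108 of the 334 NG2 cells, with 2267 of 2457 counts of Acta2 and 1321 of 1419 of Tagln, and without the cells that a second clustering placed with smooth muscle the Acta2 difference was 3.38 in place of 6.52.

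Some of the other named genes encode proteins that handle ions or calcium. Atp1b1, a subunit of the Na+/K+ ATPase, stood at 193 CPM in cluster 5, 2.19 CPM in clusters 0, 1 and 2 and 468 CPM in cluster 4 of the NG2 library. Its Tbx18 levels were 189 CPM, 4.65 CPM and 544 CPM. Slc8a1, the sodium/calcium exchanger of the plasma membrane, stood at 214 CPM (191 to 240), 4.997 CPM and 310.3 CPM in the NG2 library. Within the Tbx18 library it stood at 336 CPM (272 to 410.5), 3.49 CPM (3 counts) and 377 CPM, so that its cluster 5 and cluster 4 levels lay close together. Rcan2, a regulator of the calcium-dependent phosphatase calcineurin, stood at 152 CPM, 1.95 CPM and 667 CPM in the NG2 library. The NG2 library had 71.9 CPM of Pln, the phospholamban that restrains the calcium pump of the sarcoplasmic reticulum, against 1.34 CPM in the pericytes and 1059 CPM in cluster 4. In Tbx18 cells Pln had only 3 counts in cluster 5 (10.5 CPM, 2.17 to 30.7) and 8.14 CPM in the pericytes, a log2 difference of 0.33, and against cluster 0 alone the difference was -0.04.

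Receptors and membrane proteins were also among them. Olfr558, an olfactory-type G protein-coupled receptor, stood at 185 CPM (164 to 209.5) in cluster 5, 2.68 CPM in clusters 0, 1 and 2 and 217 CPM in cluster 4 of the NG2 library. In the Tbx18 library it stood at 179 CPM (133 to 235), 1.16 CPM (1 count) and 241 CPM. Its level in cluster 5 was thus nearer to smooth muscle than to the pericytes in both libraries. Gpr20, an orphan receptor, stood at 69.7 CPM, 1.95 CPM and 125 CPM in the NG2 library. Cav1, the coat protein of caveolae, stood at 94.9 CPM, 1.10 CPM and 239 CPM, and in the Tbx18 library at 80.5 CPM in cluster 5 with no count in clusters 0, 1 and 2, which allows up to 3.49 CPM. Sncg (gamma-synuclein), at 175 CPM, 2.44 CPM and 886 CPM, Thsd4, a protein of fibrillin microfibrils, at 116 CPM, 1.34 CPM and 213 CPM, and Adamtsl1, at 64.0 CPM, 1.34 CPM and 236 CPM, followed in the NG2 library. Insc, an adaptor of spindle orientation, stood at 58.9 CPM, 0.731 CPM and 73.6 CPM, and Map3k7cl at 179 CPM, 5.85 CPM and 301 CPM. All of these were also higher in cluster 5 than in the pericytes of the Tbx18 library.

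In the NG2 library the named genes furthest below the pericyte clusters were Itih5 and Slc6a13. Itih5, which binds hyaluronan, stood at 12.9 CPM (7.67 to 20.4) in cluster 5 of the NG2 library against 228 CPM (218 to 239) in clusters 0, 1 and 2, a difference of -4.04 on the log2 scale. Among Tbx18 cells it had 2 counts in cluster 5 (7.00 CPM) against 275 CPM. Slc6a13, a GABA and taurine transporter, stood at 4.31 CPM against 83.9 CPM in the NG2 library and at 21.01 CPM against 90.7 CPM in the Tbx18 library. Spp1 (osteopontin) stood at 4.31 CPM against 78.0 CPM in the NG2 library, and at 14.01 CPM (3.82 to 35.9) against 39.5 CPM (27.4 to 55.2) in the Tbx18 library, where the intervals overlapped. The Wnt antagonist Dkk2 stood at 6.47 CPM against 66.9 CPM, and in the Tbx18 library at 17.5 CPM against 77.9 CPM. Growth factor gene Igf2 stood at 41.0 CPM (31.0 to 53.1) against 186 CPM, and at 66.5 CPM against 287 CPM in the Tbx18 library. Uchl1, a ubiquitin hydrolase, stood at 155 CPM (135 to 177) against 547 CPM in the NG2 library and 59.5 CPM against 354 CPM in the Tbx18 library. Dcn, Caln1, Slc1a4 and Fhl2 completed the group, with log2 differences of -3.46, -2.39, -1.97 and -1.78 in the NG2 library and a lower level in the Tbx18 library too. Of the 10 named genes, Slc6a13, Dcn and Igf2 are also on the fibroblast list, where 4 of 6 genes at the minimum were lower in each library. Smooth muscle cluster 4 of the NG2 library held between 0.291 CPM (Dcn, Dkk2 and Caln1) and 8.14 CPM (Uchl1) of these 10 genes, less than cluster 5 for each but Spp1, which stood at 6.98 CPM there. The plot of ratios in both lines sets the named genes against all genes at the minimum.

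**Figure D2:**
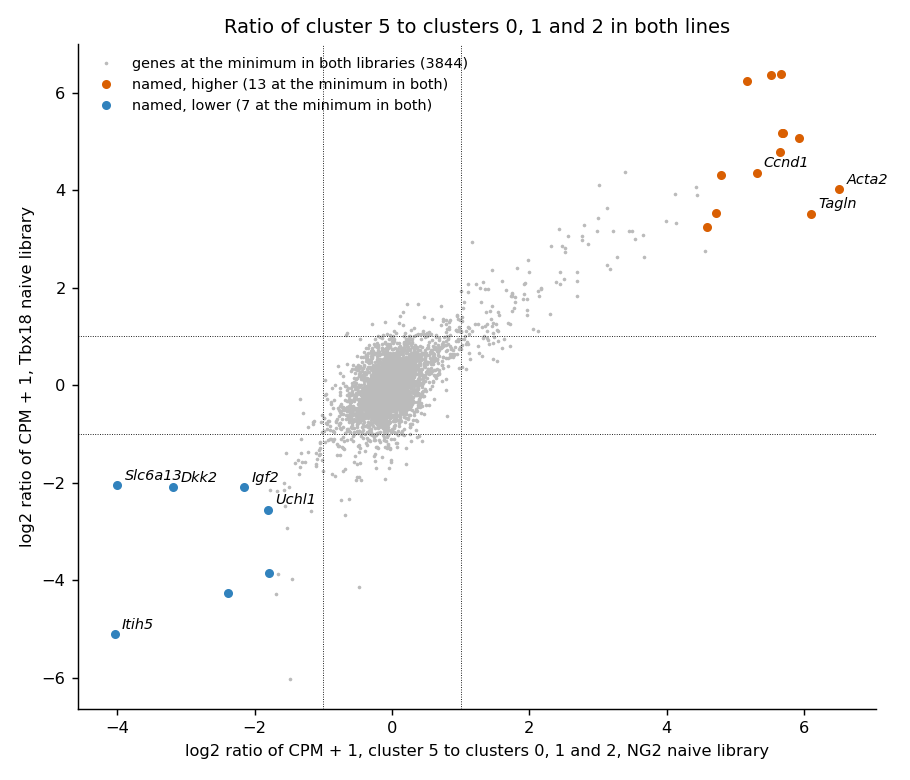
Log2 ratio of cluster 5 to clusters 0, 1 and 2 for 3844 genes at the minimum in both naïve libraries, NG2 library on the x axis and Tbx18 library on the y axis; each point is a gene and the named genes at the minimum in both (13 higher, 7 lower) are coloured. The named genes lie in the upper right and lower left corners, for example Acta2 at 6.52 and 4.01 and Itih5 at -4.04 and -5.11.

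By groups of genes, the contractile list lay above the pericyte clusters. Of its 18 genes at the minimum in the NG2 library 11 were higher and none lower, with a median log2 difference of 2.24 against -0.03 over all genes. Without the cells that a second clustering placed with smooth muscle, described below, 7 were higher in this library. Within the Tbx18 library 10 of 17 were higher and none lower, with a median of 1.55. Myh11 stood at 732 CPM (688 to 779) in cluster 5, 56.8 CPM in clusters 0, 1 and 2 and 4159 CPM in cluster 4 of the NG2 library. Not every contractile gene took this course. Cald1 (caldesmon) stood at 3690 CPM in cluster 5, 4243 CPM in the pericytes and 3614 CPM in smooth muscle of the NG2 library, with no difference at the fold. Cnn1 (calponin), a gene of mature smooth muscle, had 7 counts in cluster 5 of the NG2 library (5.03 CPM, 2.02 to 10.4) against 151 CPM in cluster 4, and none in cluster 5 of the Tbx18 library.

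Of the 20 pericyte markers, none was higher and 3 were lower than in clusters 0, 1 and 2 in each library, with medians of -0.27 and -0.43, against 1.39% and 4.04% of all genes lower. Without the cells that a second clustering placed with smooth muscle, described below, 1 was lower in the NG2 library. The 3 were the subunits of the pericyte ATP-sensitive potassium channel, Kcnj8 and Abcc9, and the gamma-glutamyl transferase gene Ggt1. Kcnj8 stood at 507 CPM (471 to 546) in cluster 5 of the NG2 library, 1618 CPM in clusters 0, 1 and 2 and 28.5 CPM in cluster 4. In Tbx18 cells it stood at 263 CPM (207 to 329), 1190 CPM and 19.7 CPM. Abcc9 stood at 607 CPM (567 to 650), 1564 CPM and 11.3 CPM in the NG2 library, and at 602 CPM (516 to 699), 1751 CPM and 14.8 CPM in the Tbx18 library. For both channel genes cluster 5 lay between the groups. Rgs5, a regulator of G protein signalling, was instead at 9023 CPM in cluster 5, 7676 CPM in the pericytes and 3747 CPM in smooth muscle of the NG2 library. The genes whose promoters drive the Cre lines did not differ at the fold, with Cspg4 at 843 CPM in cluster 5 and 832 CPM in the pericytes, and Tbx18 at 167 CPM and 178 CPM, both in the NG2 library.

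Among 51 vasoactive receptors and ion channel genes, 22 met the minimum in the NG2 library, of which 4 were higher and 3 lower (median 0.23), and 26 in the Tbx18 library, of which 7 were higher and 3 lower (median 0.34). For this and the lists that follow, the shares over all genes were 3.93% higher and 1.39% lower in the NG2 library and 6.48% and 4.04% in the Tbx18 library, and with so few members a list's count can rest on 1 or 2 genes. Pde3a, a cyclic nucleotide phosphodiesterase, stood at 549.9 CPM in cluster 5, 169 CPM in clusters 0, 1 and 2 and 1259.9 CPM in cluster 4 of the NG2 library. Cacnb2, a subunit of voltage-gated calcium channels, stood at 496 CPM, 170 CPM and 630 CPM in the NG2 library, and at 1201 CPM, 422 CPM and 1005 CPM in the Tbx18 library. The most abundant members, the cGMP-dependent kinase gene Prkg1 (1724 CPM against 1428 CPM) and the guanylyl cyclase subunit gene Gucy1b1 (1396 CPM against 1222 CPM), did not reach the fold. Of 22 transporter genes at the minimum in the NG2 library, 4 were higher and 3 lower (median -0.20), and of 22 in the Tbx18 library 3 were higher and 4 lower (median -0.27), with Atp2b4, a plasma membrane calcium pump, at 173 CPM against 51.9 CPM in the NG2 library.

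Of 9 collagen genes at the minimum in the NG2 library 1 was higher, Col4a5 at 88.4 CPM against 35.0 CPM, while Col4a1 stood at 853 CPM against 851 CPM and the list's median was 0.00. Of 17 basement membrane and matrix glycoprotein genes 1 was higher and 2 lower. The higher one was Ltbp1, which binds latent TGF-beta, at 59.7 CPM against 12.4 CPM and at 359 CPM in cluster 4. Of 6 metalloproteases and inhibitors 2 were higher, Adamtsl1 and Timp3. Timp3 stood at 541 CPM in cluster 5, 199 CPM in the pericytes and 804 CPM in smooth muscle of the NG2 library, and at 606 CPM, 236 CPM and 1049 CPM in the Tbx18 library. Adamts1 stood at 88.4 CPM, 44.4 CPM and 1073 CPM in the NG2 library and was short of the fold there at 0.98. Among Tbx18 cells 2 of 10 collagen genes were higher and 1 lower, 2 of 17 matrix glycoprotein genes were higher and 3 lower, and 6 of 9 metalloproteases and inhibitors were higher and none lower, with a median of 1.11. The 6 were Adamts16, Adamtsl1, Adamtsl5, Timp3, Adamts1 (1.11) and Adam17.

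Growth factor and signalling genes included some of the larger ratios. Of 15 PDGF and angiogenic genes at the minimum in the NG2 library, 5 were higher and 1 lower (median 0.01). In the Tbx18 library 6 of 15 were higher and 1 lower (median 0.16). Pdgfb, the ligand of the pericyte receptor Pdgfrb, stood at 58.2 CPM in cluster 5, 5.85 CPM in clusters 0, 1 and 2 and 37.2 CPM in cluster 4 of the NG2 library. Angpt1, the angiopoietin that mural cells release, stood at 131 CPM, 15.4 CPM and 155 CPM in the NG2 library and at 137 CPM, 6.97 CPM and 261 CPM in the Tbx18 library. Ccn2, a matricellular gene, stood at 150.2 CPM, 20.8 CPM and 182 CPM in the NG2 library and at 133 CPM, 12.8 CPM and 150.2 CPM in the Tbx18 library. For Angpt1 and Ccn2 cluster 5 was nearer to smooth muscle than to the pericytes in the NG2 library. Pdgfb in the Tbx18 library stood at 38.5 CPM, 5.81 CPM and 7.39 CPM, above both. Of 9 Notch pathway genes none was higher or lower in the NG2 library (median 0.13). Nrarp, a Notch target, came closest at 254 CPM against 126 CPM, and Notch3 stood at 1323 CPM against 882 CPM. The Wnt list had 2 higher (Ccnd1 and Wnt5b) and 1 lower (Dkk2) of 13 genes in the NG2 library, with a median of -0.48. The TGF-beta and BMP list had 1 of 16 higher, Id3 at 195 CPM against 90.2 CPM, and 1 lower, with a median of 0.08. The Tbx18 counts differed. There 1 of 10 Notch genes was higher, Notch2, and none lower (median 0.19), and of 14 Wnt genes 1 was higher and 3 lower (median -0.31), with Wnt5b short of the fold at 0.66. Of 19 TGF-beta and BMP genes in the Tbx18 library none was higher and 2 were lower (median -0.14), with Id3 at 0.84.

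Of the transcription factors of mural and mesenchymal cells, 29 met the minimum in the NG2 library, where Tcf15 was higher and Hic1 lower (92.0 CPM against 222 CPM), with a median of -0.03, a share near that over all genes. In the Tbx18 library 5 of 28 were higher and 2 lower, with a median of -0.01. Tbx2 stood at 409 CPM against 220 CPM and Mef2c at 1033 CPM against 632 CPM, both short of the fold. Of 10 cell cycle genes at the minimum in the NG2 library 3 were higher and none lower. They were Ccnd1, Ccnd2 and Cdkn1c, an inhibitor of cyclin-dependent kinases. In the Tbx18 library 3 of 8 were higher and 1 lower (median 0.27). Ccnd2 (cyclin D2) stood at 293 CPM in cluster 5, 32.5 CPM in clusters 0, 1 and 2 and 476 CPM in cluster 4 of the NG2 library, and at 196 CPM, 34.9 CPM and 342 CPM in the Tbx18 library. Cdkn1c stood at 182 CPM, 54.0 CPM and 221 CPM in the NG2 library. Genes of dividing cells were at or near 0, with no count of Mki67 and 1 count of Top2a in cluster 5 of the NG2 library. Of 5 epoxide and eicosanoid genes at the minimum, 1 was higher, Ephx3 itself, while Ephx1 stood at 208 CPM against 238 CPM.

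Immediate early genes, which dissociation can induce, differed between the libraries. Their 31 measured members summed to 13442 CPM in cluster 5, 21173 CPM in clusters 0, 1 and 2 and 41308 CPM in cluster 4 of the NG2 library, and to 27392 CPM, 25156 CPM and 49173 CPM in the Tbx18 library. In the NG2 library none of 23 was higher and 2 were lower, Egr1 (579 CPM against 1471 CPM) and Ier3 (101 CPM against 208 CPM), with a median of -0.52. In the Tbx18 library 5 of 25 were higher and 1 lower, with a median of 0.18, and Egr1 stood at 2083 CPM against 2557 CPM. Fos stood at 2925 CPM against 4209 CPM in the NG2 library and at 5917 CPM against 4554 CPM in the Tbx18 library. The part of dissociation in any gene's level was not tested.

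Cluster 5 thus held genes of both mural sets, and the plot of both sets by cluster gives their levels side by side. Myl9 (myosin light chain) stood at 2601 CPM in cluster 5, 1707 CPM in clusters 0, 1 and 2 and 5799 CPM in cluster 4 of the NG2 library. Tpm2 (tropomyosin) stood at 954 CPM, 168 CPM and 3967 CPM. Pdgfrb stood at 1415 CPM, 1641 CPM and 336 CPM. Of the 6 contractile and 9 pericyte markers in the plot, the contractile ones in the NG2 library lay above the pericytes and below smooth muscle, and the pericyte ones lay above smooth muscle and, except Rgs5, below the pericytes. Other contractile genes did not follow this, among them Cald1 as given above and Casq2 (a calcium-binding calsequestrin), at 809 CPM in cluster 5, 471 CPM in the pericytes and 93.6 CPM in smooth muscle of the NG2 library.

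**Figure D3:**
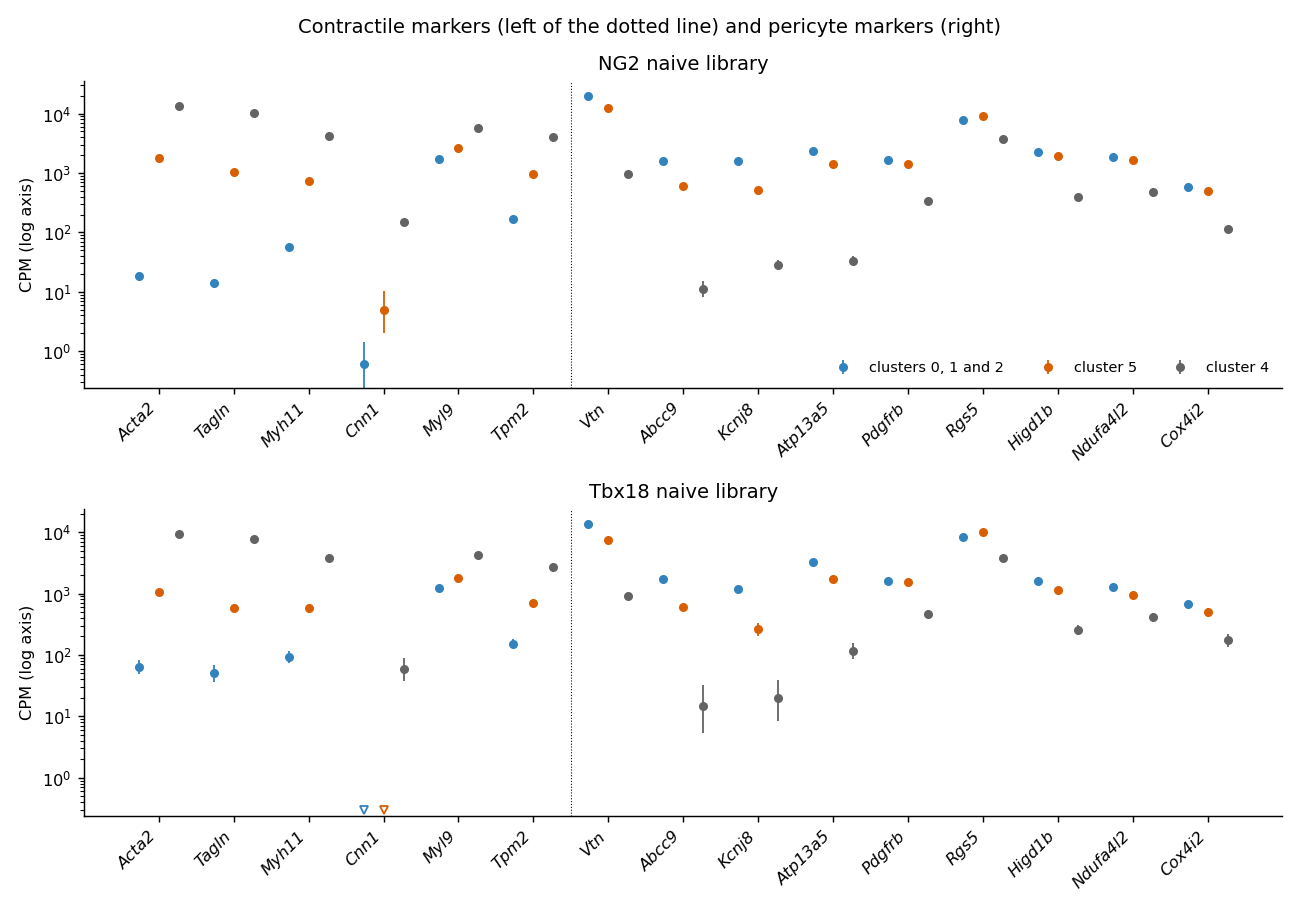
Levels (CPM, log axis) of 6 contractile and 9 pericyte markers in clusters 0, 1 and 2 summed, cluster 5 and smooth muscle cluster 4, by naïve library, with exact 95% Poisson bars. In the NG2 library Acta2 steps up from the pericytes through cluster 5 to cluster 4 (18.3, 1766 and 13352 CPM) and Kcnj8 steps down (1618, 507 and 28.5 CPM), while Cnn1 has no count in the pericytes and in cluster 5 of the Tbx18 library.

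The position of cluster 5 between the groups depended on the scale. Of 306 genes at least 4-fold higher in cluster 4 than in clusters 0, 1 and 2 in the NG2 library, 282 lay between them in cluster 5. The median gene had covered 16.4% of the way from the pericyte level to that of cluster 4 in CPM and 45.5% on the log2 scale. Of 275 genes at least 4-fold higher in the pericytes, 243 lay between, with a median of 36.1% of the way to cluster 4 in CPM and 16.1% on the log2 scale. Among Tbx18 cells 257 of 303 and 262 of 296 genes lay between, with medians in CPM of 14.9% and 37.8%.

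Within cluster 5 the cells were not alike in contractile genes. At 1000 UMIs a cell, the 6 contractile markers took a median of 4 UMIs in cluster 5 of the NG2 library, with quartiles of 2 and 9 and a 90th percentile of 16.6. The median was 2 in clusters 0, 1 and 2 and 36 in cluster 4. The 9 pericyte markers took a median of 29 UMIs in cluster 5, 39 in clusters 0, 1 and 2 and 4 in cluster 4. Within the Tbx18 library the medians in cluster 5 were 4 and 25 UMIs. Acta2 was seen in 37.5% (32.3 to 43.1) of cluster 5 cells at 1000 UMIs in the NG2 library, in 1.81% of cells in clusters 0, 1 and 2, and in 99.0% in cluster 4. Acta2 and Vtn were seen in the same cell in 36.0% (30.8 to 41.5) of cluster 5 cells, in 1.81% of clusters 0, 1 and 2, and in 39.4% of cluster 4. In Tbx18 cells these shares were 40.4% (26.4 to 55.7), 6.80% and 47.8%. The plot of both sets per cell shows the spread.

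**Figure D4:**
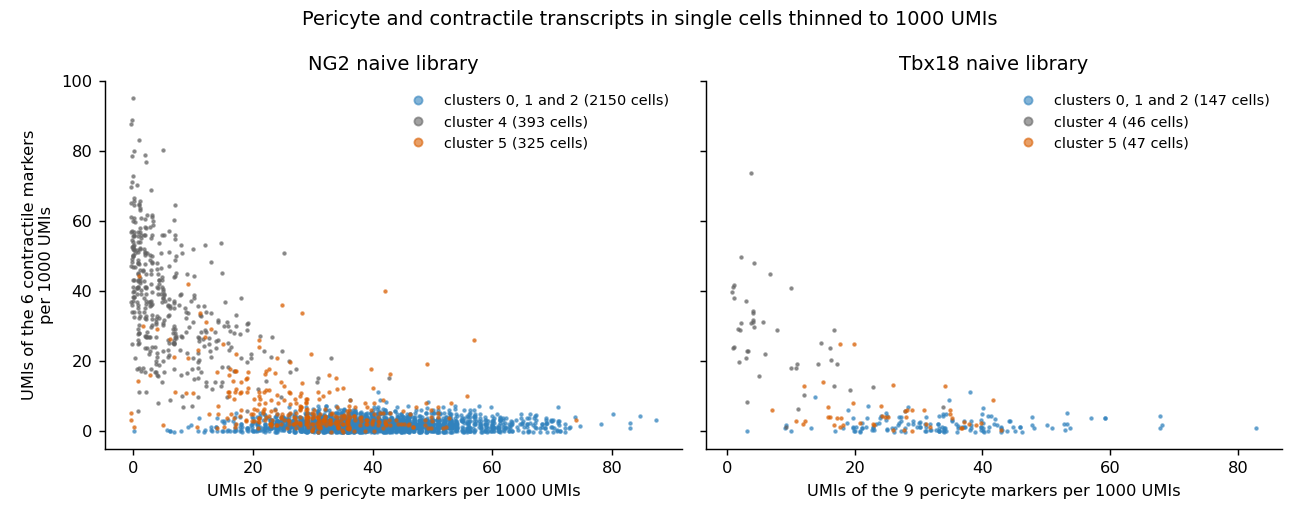
Each point is a naïve cell thinned to 1000 UMIs, with UMIs of the 9 pericyte markers and of the 6 contractile markers on the axes, by library and cluster group (clusters 0, 1 and 2, cluster 5, cluster 4). Cluster 5 cells keep most of the pericyte UMIs (median 29 in the NG2 library) while their contractile UMIs spread upward from the pericytes' median of 2.

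Droplets with a pericyte and a smooth muscle cell would also hold both sets, so depth and doublet scores are given. The median cluster 5 cell had 4123 UMIs in the NG2 library, and the median cells of clusters 0 and 4 had 3811 and 8661. Scrublet's own threshold called 1 of 4306 NG2 cells and 4 of 686 Tbx18 cells, so in the NG2 library it cannot be said to have worked. Among the 148 NG2 cells with the highest scores, 13 were of cluster 5 (3.89% of it, 2.09 to 6.56), against 3.44% of all cells. The share was 6.41% in cluster 0 and lower than in cluster 5 in clusters 1 (2.19%), 2 (2.39%) and 4 (1.02%, 0.278 to 2.59). The median score was 0.0489 in cluster 5 and 0.0541 over all NG2 cells. It was 0.00971 in cluster 5 and 0.00747 over all cells of the Tbx18 library, and of the 4 cells called 1 was in cluster 5 and none in clusters 0, 1, 2 and 4. Without the highest-scoring cells the contrasts with the pericytes stayed within 1.5 times their counts. Whether single droplets held 2 cells was not tested further.

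Compared with smooth muscle cluster 4, cluster 5 had many more genes at the fold. Within the NG2 library 625 of 4314 genes were higher (14.5%) and 389 lower (9.02%), and in the Tbx18 library 905 of 4523 were higher (20%) and 507 lower (11.2%). The median of all genes was 0.24 in the NG2 library and 0.20 in the Tbx18 library, and TMM scaling moved it to -0.16 and -0.11 and the counts to 375 higher and 656 lower in the NG2 library and 629 and 786 in the Tbx18 library. The balance of higher and lower genes against smooth muscle therefore turned with the scaling, and gene differences should be read against those medians. The largest were far beyond them. Grm3, a metabotropic glutamate receptor, stood at 449 CPM (414 to 485) in cluster 5 and 3.49 CPM in cluster 4 of the NG2 library, and at 560.2 CPM and 9.85 CPM in the Tbx18 library. Ptn (pleiotrophin) stood at 7029 CPM and 216 CPM in the NG2 library, and at 4072 CPM and 234 CPM in the Tbx18 library. The P5-type ATPase gene Atp13a5 stood at 1404 CPM and 33.4 CPM. Abcc9, Ggt1, Slc22a8 (an organic anion transporter), Tnxb (a tenascin) and Gm36823 completed the 8 named genes, with log2 differences between 5.46 and 5.64 in the NG2 library.

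The 8 named genes lower than in cluster 4 were at or near 0 in cluster 5. Eln (elastin) had 5 counts in cluster 5 of the NG2 library (3.59 CPM, 1.17 to 8.39) and 132 CPM in cluster 4. Synpo2, an actin-bundling protein, stood at 5.75 CPM and 176 CPM. Thbs1 (thrombospondin) had 3 counts (2.16 CPM) against 138 CPM. Sh3bgr, Xirp1, Id2 and Pi15 had 1 to 3 counts each in cluster 5, against 101, 65.1, 114 and 60.5 CPM in cluster 4. BC051019 had no count in cluster 5, which allows up to 2.16 CPM, against 53.2 CPM. Of 20 contractile genes at the minimum 15 were lower and 1 higher than in cluster 4 in the NG2 library (median -1.80), and 18 and 1 in the Tbx18 library (median -1.96).

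A few genes lay outside both comparison groups. In the NG2 library 18 of 3980 genes were at least 2-fold above both and 5 below both, in the Tbx18 library 77 and 28 of 4144, and 9 were above and 3 below in both libraries. Those named here were chosen after their values were seen. Ccnd1, Ephx3, Tcf15 and Ackr3 were among the 9. Without the cells that the second clustering placed with smooth muscle, described below, the log2 difference of Ccnd1 from cluster 4 in the NG2 library was 0.97 in place of 1.44, under the fold. Serpini1 (neuroserpin), an inhibitor of tissue plasminogen activator, stood at 750 CPM in cluster 5, 223 CPM in clusters 0, 1 and 2 and 185 CPM in cluster 4 of the NG2 library, and at 956 CPM, 334 CPM and 259 CPM in the Tbx18 library. Impa2, an inositol monophosphatase, stood at 110 CPM, 39.4 CPM and 9.31 CPM, and in the Tbx18 library at 189 CPM, 36.0 CPM and 14.8 CPM. Sorcs1, a sorting receptor, stood at 65.4 CPM, 10.6 CPM and 17.4 CPM. Pkia, an inhibitor of protein kinase A, stood at 224 CPM, 109 CPM and 106 CPM, and Zfp462 at 66.1 CPM, 31.9 CPM and 19.2 CPM, both close to the fold. Among the 3 below both were Cebpd, a transcription factor, at 123 CPM, 265 CPM and 419 CPM, and Ier3, an immediate early gene, at 101 CPM, 208 CPM and 434 CPM. Cluster 5 of the Tbx18 library held 105 CPM of Cebpd and 87.5 CPM of Ier3, against 324 CPM and 201 CPM in the pericytes.

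The same naïve cells were clustered again by the authors together with the injured cells of their own line, and the cells of cluster 5 were not kept together there. Of the 334 NG2 cells, 163 (48.8%, 43.3 to 54.3) were in pericyte cluster 2 of that second clustering, 51 (15.3%) in pericyte cluster 1 and 108 (32.3%, 27.3 to 37.6) in smooth muscle cluster 3, so called here because it held naïve cluster 4. The remaining 12 lay in clusters 0, 8 and 10. All 393 cells of naïve cluster 4 were in that smooth muscle cluster, and none of the cells of naïve clusters 0, 1 and 2 were. Of the 47 Tbx18 cells, 30 (63.8%) were in pericyte cluster 2 of the Tbx18 clustering and 13 (27.7%, 15.6 to 42.6) in its smooth muscle cluster 1.

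The part of cluster 5 that was placed with smooth muscle had the higher levels of Acta2. Within the NG2 library Acta2 stood at 5174 CPM (4963 to 5392) in those 108 cells, at 198 CPM (167 to 234) in the 163 cells of the second clustering's cluster 2 and at 156 CPM (103 to 228) in the 51 cells of its cluster 1. The pericytes of naïve clusters 0, 1 and 2 had 18.3 CPM, so that the cells placed with pericytes were above them as well. Vtn ran the other way, at 7559 CPM, 13914 CPM and 18947 CPM in the same order. Abcc9 stood at 135 CPM in the cells placed with smooth muscle and at 802 CPM and 782 CPM in the others. Of the markers, Ephx3 stood at 269 CPM (223 to 323), 88.2 CPM (67.9 to 113) and 52.1 CPM (23.8 to 99.0), and Ccnd1 at 288 CPM, 145 CPM and 98.5 CPM. Ackr3 was closer together, at 1166 CPM, 1069 CPM and 909.7 CPM, and Tcf15 was at 110 CPM, 157 CPM and 191 CPM. Median UMIs of the 3 sets of cells were 3718.5, 4384 and 3306, so the cells with much Acta2 were not the deepest. In the Tbx18 library Acta2 stood at 2209 CPM in the 13 cells placed with smooth muscle and at 489 CPM in the 30 placed with pericytes, and Vtn at 5363 CPM and 8458 CPM. Ackr3 stood at 675 CPM (508 to 879) and 1049.6 CPM (910.5 to 1204) in the same cells, and Tcf15 had no count in the 13 and 108 CPM in the 30.

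**Figure D5:**
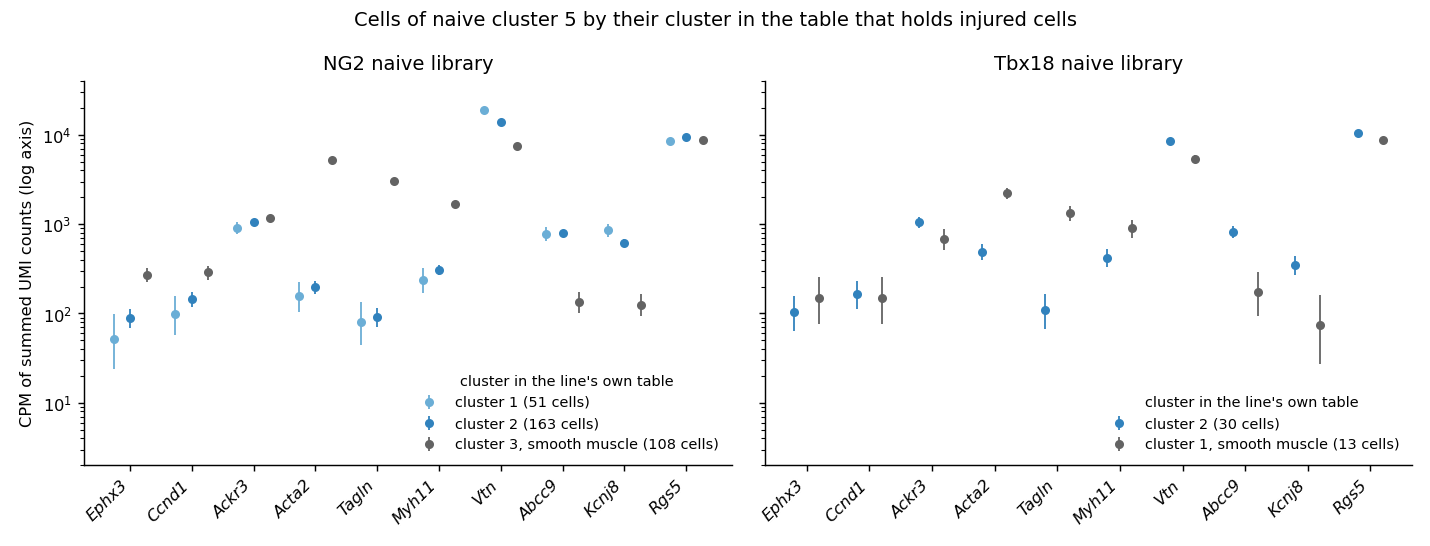
Levels (CPM, log axis) of markers, contractile and pericyte genes in cluster 5 cells, split by the cluster that the second clustering with injured cells of the same line gives them, with exact 95% Poisson bars. Acta2 runs from 156 and 198 CPM in cells placed with pericytes to 5174 CPM in cells placed with smooth muscle (NG2), while Ackr3 lies between 909.7 and 1166 CPM.

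Leaving out the cells that the second clustering placed with smooth muscle, which was done after seeing this split, lowered the count of genes above the pericytes in the NG2 library from 167 to 91, while the lower genes went from 59 to 49. The contractile list then had 7 genes higher in place of 11, and the pericyte list 1 lower in place of 3. Among Tbx18 cells 9 contractile genes were then higher and 1 lower, and 3 pericyte markers lower. The log2 difference of Acta2 from the pericytes was 3.38 without those cells and that of Tagln 2.80, while Ccnd1 was at 4.84, Ephx3 at 2.46, Ackr3 at 1.48, Olfr558 at 4.89 and Atp1b1 at 4.89. Other named genes moved further, Rcan2 from 5.69 to 3.51, Sncg from 5.68 to 3.09, Pln from 4.96 to 2.30 and Adamtsl1 from 4.79 to 2.16. All 30 of the genes named against the pericytes kept their direction in both libraries without those cells. Among Tbx18 cells the counts without them were 280 higher and 233 lower.

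The injured libraries had no part in forming the naïve clusters, so they show whether the 6 markers go together with the same genes elsewhere. Among cells in the pericyte clusters of each line's second clustering, cells with at least 2 of the 6 markers were set against cells with none, and the markers themselves were left out. In the NG2 ischemic library 320 of 1368 cells (23.4%, 21.2 to 25.7) had at least 2 markers, in the NG2 physical library 274 of 1210 (22.6%, 20.3 to 25.1), in the Tbx18 physical library 70 of 433 (16.2%, 12.8 to 19.98) and in the Tbx18 ischemic library 8 of 86 (9.30%, 4.10 to 17.5). The naïve cells counted the same way gave 16.3% in the NG2 line and 28.8% in the Tbx18 line. This choice of cells did not single out cluster 5. Over all cells of each naïve cluster, at least 2 markers were seen in 242 cells of cluster 5 (NG2). They were also seen in 283 cells of clusters 0, 1 and 2 there, and in 38 and 23 cells in the Tbx18 library. No gene ratios are given for naïve cells chosen this way, so the contrasts below describe cells with the markers and not cluster 5. Cells with the markers were deeper than cells with none, with medians of 5547 and 3601 UMIs in the NG2 ischemic, 5184 and 4213.5 in the NG2 physical and 3733.5 and 2156.5 in the Tbx18 physical library. At 1000 UMIs a cell the shares were 4.06% (3.06 to 5.28), 3.79% (2.78 to 5.04), 6.25% (3.96 to 9.31) and 1.33% (0.0338 to 7.21) in the same order, and 3.27% (2.70 to 3.93) and 5.38% (2.81 to 9.21) in the naïve NG2 and Tbx18 cells. At equal depth the intervals of naïve and injured cells overlapped in each line. These intervals cover counting error within 1 library per condition, so they do not compare the conditions. The Tbx18 ischemic share rests on 1 of 75 cells.

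The genes that went with the markers differed in number between the injured libraries. In the NG2 ischemic library 15 of 4127 genes were higher in cells with the markers (0.363%) and 16 lower (0.388%). In the NG2 physical library 35 of 4220 were higher (0.829%) and 9 lower (0.213%). In the Tbx18 physical library, where 70 cells stood against 250, 226 of 4540 were higher (4.98%) and 223 lower (4.91%), which is about the same on both sides. In its pericyte clusters the Tbx18 ischemic library had too few cells with the markers for gene ratios, under a minimum of 20 cells that was set after seeing these numbers. With its smooth muscle cluster added, 20 cells of that library had the markers, and 935 of 5044 genes were higher and 575 lower in them, with none of the 6 contractile markers higher and 2 lower (median -0.52).

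In the NG2 physical library 3 of the 5 contractile markers at the minimum were higher in cells with the markers. Acta2 stood at 700 CPM (660 to 742) against 303 CPM in cells with none, Myh11 at 152 CPM (133 to 172) against 46.6 CPM and Tpm2 at 431 CPM (400 to 464) against 207 CPM. In the NG2 ischemic library none of the 5 reached the fold, with Acta2 at 452 CPM against 404 CPM, Tagln at 180.1 CPM against 261 CPM and Tpm2 at 560.4 CPM against 296 CPM, while 2 did with at least 3 markers and 1 with cells chosen at 1000 UMIs. In the Tbx18 physical library Acta2 reached it, at 2400 CPM (2248 to 2561) against 1162 CPM, and Myh11 did not, at 705 CPM against 655 CPM. With the smooth muscle cluster of the same clustering added to the cells, none of the 6 contractile markers was higher and 1 was lower in each NG2 library and in the Tbx18 physical library, with median log2 differences of -0.14 (NG2 ischemic), -0.12 (NG2 physical) and -0.37 (Tbx18 physical). With the cells chosen on counts thinned to 1000 UMIs, 1 of the 5 was higher and 1 lower in the NG2 physical library, with a median log2 difference of 0.26 in place of 1.05, and with at least 3 markers 2 were higher, with a median of 0.27. The thinned choice gave 2 of 5 higher in the Tbx18 physical library, with a median of 0.90. Over all genes the thinned choice gave 599 of 4957 higher in that library, with a median of 0.13. It gave 68 of 4392 (median 0.02) in the NG2 physical and 61 of 4191 (median 0.04) in the NG2 ischemic library. With at least 3 markers 97 of 4370 genes were higher in the NG2 physical and 47 of 4209 in the NG2 ischemic library. The link of the 6 markers to contractile genes in injured cells thus varied with the clusters read and with how the cells were chosen.

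Of the 14 genes named above as higher in cluster 5, markers left out, only 2 met the minimum in each NG2 library, and none was higher in the ischemic and 1, Acta2, in the physical library. With the smooth muscle cluster added, 2 of 12 (ischemic) and 4 of 13 (physical) were higher. With the choice at 1000 UMIs, 2 of 4 and 3 of 5 were higher, and 1 of the 5 was lower. At least 3 markers gave none of 2 and 3 of 5. With at least 2 markers at full depth in the pericyte clusters, some of the named genes below the minimum had low counts that were higher in cells with the markers. Olfr558 had 41 counts (25.1 CPM, 18.0 to 34.0) against none in the NG2 physical library, and 32 counts (14.6 CPM) against 2 in the NG2 ischemic library. Slc8a1 stood at 36.7 CPM (28.0 to 47.2) against 4.66 CPM in the physical and 23.3 CPM (17.3 to 30.6) against 4.17 CPM in the ischemic library. Map3k7cl stood at 33.6 CPM against 3.88 CPM and Gpr20 at 16.5 CPM against 1.55 CPM (2 counts) in the physical library. These examples were chosen after their values were seen, and others went the other way, with log2 differences in the NG2 ischemic library of -0.95 for Insc, -0.53 for Rcan2 and -0.43 for Adamtsl1. In the Tbx18 physical library 12 met the minimum and 6 were higher. They were Acta2, Atp1b1 (151 CPM against 40.2 CPM), Sncg (198 CPM against 54.5 CPM), Olfr558 (112 CPM against 3 counts, 4.302 CPM), Cav1 (133 CPM against 40.2 CPM) and Pln (133 CPM against 47.3 CPM). Slc8a1 stood at 115 CPM in cells with the markers against 208 CPM and Rcan2 at 172 CPM against 318 CPM there, differences of -0.85 and -0.88 on the log2 scale that are short of the fold. With the smooth muscle cluster added, 2 of the 14 named genes were higher in that library (median 0.21 in place of 0.86). With the choice at 1000 UMIs 9 of 14 were higher and 1 lower. Of the 10 genes named as lower, 9 met the minimum in each NG2 library and 3 were lower in each. Spp1 stood at 330 CPM in cells with the markers against 790 CPM in the ischemic and at 55.1 CPM against 234 CPM in the physical library. Dkk2 stood at 15.05 CPM against 64.3 CPM in the ischemic library, and Itih5 at 143 CPM against 335 CPM in the physical library. In the Tbx18 physical library 2 of 6 were lower, Dcn and Fhl2. Itih5 went the other way there, at 149 CPM against 97.5 CPM, a log2 difference of 0.61 that is short of the fold. With at least 3 markers 6 of 9 of these named genes were lower in the NG2 ischemic and 7 of 9 in the NG2 physical library. With the choice at 1000 UMIs 3 of 8 and 6 of 10 were lower, and 4 of 6 in the Tbx18 physical library.

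Whether the markers went with each other in the injured cells was read at 1000 UMIs. In the Tbx18 physical library Ccnd1 was seen in 15.5% (7.996 to 26.0) of 71 cells with another marker and in 2.49% (1.01 to 5.06) of 281 cells without one. Tcf15 was seen in 9.21% (3.78 to 18.1) and 0.725% (0.0879 to 2.59), and Ackr3 in 36.4% (22.4 to 52.2) and 11.04% (7.77 to 15.1). In this library the intervals lay apart for these 3 genes. In the NG2 libraries the intervals of all 6 markers overlapped. Ccnd1 stood at 3.07% (1.69 to 5.10) and 1.06% (0.486 to 2.00) in the ischemic library and Tcf15 at 5.45% (3.53 to 8.01) and 2.41% (1.43 to 3.78) in the physical library. Ackr3 stood at 38.8% (30.3 to 47.7) and 28.6% (26.0 to 31.2) in the ischemic and 41.6% (31.9 to 51.8) and 32.8% (30.0 to 35.7) in the physical library, with overlapping intervals in both. Ephx3 stood at 3.36% (1.89 to 5.47) and 2.10% (1.25 to 3.30) in the ischemic library and, the other way round, at 1.36% (0.4998 to 2.93) and 2.14% (1.23 to 3.46) in the physical library, with overlap in both. Its intervals in the Tbx18 physical library also overlapped, at 12.1% (5.38 to 22.5) and 4.196% (2.19 to 7.21). The Tbx18 ischemic library had at most 18 cells with another marker, and no marker but Adamts16 and Ackr3 was seen in them (1 cell each).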

How the data were processed

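Single-cell 3′ RNA sequencing was available for 6 libraries, 1 per group. Per the labels and the methods, the authors ran Cell Ranger on mm10 (GRCm38), removed cells below 200 genes, above 12% mitochondrial transcripts or more than 2 SD from average in genes or UMIs, dropped Gm42418 and AY036118, and integrated and clustered the libraries in Seurat. The deposited matrices hold raw UMI counts per gene and cell. The deposited cell tables hold the authors' cluster numbers and the percent of mitochondrial and ribosomal UMIs in each cell, used here only as medians. Their doublet treatment is not given in the sources used here. The depth of the naïve libraries was 20264659 UMIs over 4306 NG2 cells and 3153996 over 686 Tbx18 cells, and the injured libraries held between 20308437 and 54276245 UMIs.

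Groups were taken from the sample titles, cells were joined to libraries by the deposited annotation, and UMI counts were summed per cluster and library (Python 3.11.15, numpy 2.4.6, pandas 2.3.3, scipy 1.17.1, scanpy 1.11.5 for Scrublet, matplotlib 3.10.9; TMM factors with edgeR 4.0.16 in R 4.3.3). CPM intervals were exact Poisson and shares exact Clopper-Pearson, both 95%. Where a count was 0, 3 counts in the summed cells set the limit. This is below the exact upper limit, for example 7.39 against 9.09 CPM for Col28a1 in cluster 4 of the Tbx18 library. Thinning drew 1000 UMIs from each cell without replacement and left out shallower cells, 9 in cluster 5 of the NG2 library. No gene test was run because each group is 1 library and a cluster against the rest is no test. The ratio step was tested on simulated counts with known changes and counting error only. Of unchanged genes, 0% reached the fold in the NG2 setting and 1.79% in the Tbx18 setting. Of genes changed by -1.5 on the log2 scale, 100% were recovered in the NG2 and 82% in the Tbx18 setting.

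Named genes were the 6 markers, the 15 with the largest ratio above and 10 below clusters 0, 1 and 2 in the NG2 library (same direction against each cluster and in the Tbx18 library), the 8 at each end against cluster 4, and in each of 25 gene lists the 2 most abundant and 3 with the largest ratio, with the defining markers of other cell types. The members, markers and lists were chosen with earlier results of these data known. Alternatives covered scaling, pseudocount, minimum, depth, cells kept, doublet score, comparison cells and weight of cells. Gene positions are from GENCODE M21, whose release may not be the one the authors used. A few genes are not reported here by name.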

Additional observations from a re-analysis of the deposited data

How the results depend on the processing

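With 1 library per group no replicate could be left out. No paired analysis was possible because each group holds 1 library and no result comes from a test. The genes named against the pericytes kept their direction in both libraries under the alternatives run, except Pln in the Tbx18 library against cluster 0 alone (-0.04). The genes named against cluster 4 kept theirs under TMM scaling, both other minimums, both pseudocounts, thinning and leaving out the cells placed with smooth muscle. The study filters, doublet scores and mean of each cell's CPM were not run for their directions. The balance of higher and lower genes against cluster 4 turned with TMM scaling in both libraries, as given below. The causes of the moves below were not tested, beyond what each construction implies.

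Read over pericyte clusters 0, 1, 2, 3, 5 and 8, cluster 5 was 10.5% of NG2 and 17.2% of Tbx18 cells. A minimum of 10 CPM gave 411 higher and 220 lower genes against clusters 0, 1 and 2 in the NG2 library, 1091 and 1080 in the Tbx18 library, and against cluster 4, 1532 and 701 and 2397 and 1227. With no minimum these were 911 and 693, 1938 and 3301, 2489 and 1311, and 3542 and 2537. Above and below both groups in both libraries there were then 26 and 6 genes at 10 CPM and 55 and 43 with no minimum. Thinning to 1000 UMIs gave 119 lower genes against the pericytes in the NG2 library, 890 higher and 822 lower in the Tbx18 library, 1459 and 1183 against cluster 4 there, and 1 gene below both. TMM scaling gave 375 higher and 656 lower against cluster 4 in the NG2 library and 629 and 786 in the Tbx18 library. Against cluster 1 alone the Tbx18 library had 707 higher and 577 lower genes, against cluster 2 alone 300 lower, and with the mean of each cell's CPM 336 lower, while the NG2 library had 137 lower against cluster 2 alone. Without cells placed with smooth muscle the NG2 library had 91 higher.

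In the injured cells, at least 3 markers were found in 5.77% (NG2 ischemic), 5.79% (NG2 physical) and 3.93% (Tbx18 physical) of cells. At 1000 UMIs at least 2 were found in 4.06%, 3.79% and 6.25%, and in 1.33% of Tbx18 ischemic cells. With smooth muscle added the shares were 26.5%, 27.0% and 22.0%. Genes higher and lower in the NG2 ischemic library were 47 and 56 with 3 markers and 61 and 64 after thinning. In the NG2 physical library they were 97 and 63, and 68 and 81, with 21 lower when smooth muscle was added. In the Tbx18 physical library they were 599 and 622 after thinning and 48 and 38 with smooth muscle added, and 3 markers left too few cells for gene ratios. Among values for single genes, lists and shares of cells with a marker, 525 moved by more than their counting interval or 1.5 times and 2627 did not. Depth limits the Tbx18 library most, where 47 cells make up cluster 5 and 3 counts are 10.5 CPM.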
